A study of Mus musculus with 16 samples.

Results

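The fibrillar collagen chains described here are the products of 10 genes, Col1a1, Col1a2, Col2a1, Col3a1, Col5a1, Col5a2, Col5a3, Col11a1, Col11a2 and Col27a1. They were chosen by gene symbol, not by a measured value, and all 10 were found among the 49568 genes of the count table. RNA-seq had been performed on mouse deep digital flexor tendon in 16 libraries, 4 in each of 4 groups: uninjured C57, C57 at 7 days post-injury (dpi), uninjured MRL and MRL at 7 dpi. C57 stands for C57BL/6J, a common inbred strain, and MRL for MRL/MpJ, an inbred strain known for healing several tissues with little scar. All mice were adult males, the injury was a partial laceration across the tendon of a hind paw digit, and each library came from a single tendon taken with its sheath and surrounding tissue. Injured libraries are named as their labels name them. Those of C57 are BI-181, BI-183, BI-184 with BI-185, and those of MRL are BI-270, BI-272, BI-274 with BI-275, which is the order in which values are given. Uninjured libraries go by replicate number, in the order 1 to 4.

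Fibrillar collagens are made as procollagen chains that fold into trimers, are exported, trimmed at their ends and assembled into the cross-linked fibrils that carry load in tendon. Type I collagen, built from Col1a1 and Col1a2 chains, is the bulk of tendon fibrils, and type III (Col3a1) is a homotrimer that is abundant in early scar. Type V (Col5a1, Col5a2, Col5a3) and type XI (Col11a1, Col11a2, with a chain from Col2a1) start fibrils and limit their width, type II (Col2a1) forms the fibrils of cartilage, and type XXVII (Col27a1) is a shorter member found in cartilage and other tissues.

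What the chains share is a long run of codons in which each set of 3 codons opens with glycine. In the longest coding transcript of each gene in GENCODE M21 (GRCm38), the longest unbroken run held from 337 to 344 glycine triplets for the chains other than Col27a1 and 217 for Col27a1. Proline codons made up from 18.3% (Col27a1) to 24.1% (Col5a1) of the codons of the run. The start of the run is printed 5' to 3' over 54 coding bases for the 4 chains whose transcripts rose in MRL tendon below and for Col1a1 as the main tendon chain, with the glycine codon that opens each set of 3 in capitals.
Col1a1: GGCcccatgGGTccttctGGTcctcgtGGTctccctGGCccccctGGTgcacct
Col3a1: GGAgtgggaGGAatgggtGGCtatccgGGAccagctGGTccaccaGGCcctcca
Col5a1: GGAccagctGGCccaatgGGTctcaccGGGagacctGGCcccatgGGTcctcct
Col11a1: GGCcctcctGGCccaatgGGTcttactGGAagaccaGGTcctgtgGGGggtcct
Col27a1: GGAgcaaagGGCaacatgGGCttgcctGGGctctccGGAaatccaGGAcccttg

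The promoters of the same 4 chains, and of Col1a2 beside them, are shown because these transcripts are the ones on which the comparisons below turn. RefSeq promoter sequences (GRCm38.p6) were matched for 7 of the 10 members, and Col1a1, Col2a1 and Col5a2 had no entry. The 250 bases before the start site are printed 5' to 3' on the gene's strand, and capitals mark the TATA box TATAAA, the CCAAT box and the GC box GGGCGG on either strand, none of which overlap here. The windows are chr1:45311288-45311537 for Col3a1, chr2:27886175-27886424 for Col5a1, chr3:114030290-114030539 for Col11a1, chr4:63215162-63215411 for Col27a1 and chr6:4505368-4505617 for Col1a2, all on the plus strand.
Col3a1: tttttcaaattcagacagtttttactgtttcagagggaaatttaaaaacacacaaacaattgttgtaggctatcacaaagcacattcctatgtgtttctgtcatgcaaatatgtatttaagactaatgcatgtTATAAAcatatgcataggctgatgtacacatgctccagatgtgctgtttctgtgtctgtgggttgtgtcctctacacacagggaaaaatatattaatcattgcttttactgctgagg
Col5a1: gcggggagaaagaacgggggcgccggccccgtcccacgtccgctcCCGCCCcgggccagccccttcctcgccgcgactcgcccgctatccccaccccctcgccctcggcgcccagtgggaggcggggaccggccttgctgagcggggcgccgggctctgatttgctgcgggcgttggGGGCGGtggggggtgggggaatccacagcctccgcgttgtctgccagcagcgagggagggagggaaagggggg
Col11a1: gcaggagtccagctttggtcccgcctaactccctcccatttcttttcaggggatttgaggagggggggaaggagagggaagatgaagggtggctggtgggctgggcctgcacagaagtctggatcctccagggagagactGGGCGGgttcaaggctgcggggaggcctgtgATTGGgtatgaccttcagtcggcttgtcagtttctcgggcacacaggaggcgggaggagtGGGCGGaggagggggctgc
Col27a1: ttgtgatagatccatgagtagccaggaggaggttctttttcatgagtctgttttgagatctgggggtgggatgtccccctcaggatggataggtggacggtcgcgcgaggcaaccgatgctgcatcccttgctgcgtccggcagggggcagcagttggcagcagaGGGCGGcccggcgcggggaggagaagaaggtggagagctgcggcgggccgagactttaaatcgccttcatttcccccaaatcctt
Col1a2: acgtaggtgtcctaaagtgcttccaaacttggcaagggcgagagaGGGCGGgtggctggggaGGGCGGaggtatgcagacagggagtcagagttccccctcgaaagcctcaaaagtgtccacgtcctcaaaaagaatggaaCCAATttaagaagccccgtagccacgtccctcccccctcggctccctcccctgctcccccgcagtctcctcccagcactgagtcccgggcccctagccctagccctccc
Among all 32851 windows of this length in the table, 12.4% held TATAAA, 33.8% CCAAT and 32.7% GGGCGG. Of the 5 windows printed, TATAAA was in that of Col3a1, at bases -117 to -112 from the start site. CCAAT was in those of Col11a1 and Col1a2, and GGGCGG in all but that of Col3a1. No motif was common to the 4 chains that rose.

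Libraries held between 12552424 and 23741648 counts. All 4 injured MRL libraries, at 18524170 counts or more, were deeper than every library of the other groups, at 17832908 or fewer. In a library 3 counts were worth from 0.126 to 0.241 CPM (CPM being the counts scaled to a common library size, after TMM adjustment). Several libraries stood apart. Uninjured C57 replicate 4 had a summed epidermal marker level of 87565 CPM, against a lowest value of 157 CPM in its group, and its median rank correlation with its own group was 0.80. Uninjured MRL replicate 4 and all 4 uninjured C57 libraries had a highest rank correlation with a library of another group (0.96 for MRL replicate 4) above the median with their own group (0.94). Skeletal muscle markers summed to between 7.92 and 59699 CPM in injured C57 tendon and to at most 20.7 CPM in the other groups. The 8 tendon markers, which include Scx, Tnmd and Fmod, were all tested in every comparison, and summed to between 5271 and 19926 CPM in the 16 libraries. Values without the libraries labelled uninjured replicate 4 are given where a call changes without them. In tissue of this kind fewer cells of a type and less RNA per cell cannot be told apart.

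The 10 chains took from 0.741% of the counts of a library (uninjured C57 replicate 4) to 6.31% (BI-272). Per kb of transcript, the type I and type III chains led in every group, at means from 812 to 2754 CPM per kb, followed by Col5a2 and Col5a1. Col1a2, Col1a1 and Col3a1 lay close together in uninjured C57 tendon, at 859 ± 184, 822 ± 249 and 812 ± 321 CPM per kb (SD, n = 4), so that their order was within the spread. Col5a2 followed at 110 ± 49.9 CPM per kb and Col5a1 at 42.2 ± 16.4 CPM per kb. The chains of cartilage and the minor fibril chains were lower again, with Col11a1 at 10.6 ± 3.29, Col2a1 at 5.75 ± 2.39, Col5a3 at 2.74 ± 2.41, Col27a1 at 1.501 ± 0.229 and Col11a2 at 0.534 ± 0.221 CPM per kb. In injured MRL tendon Col11a1 reached 44.9 ± 22.1 CPM per kb and stayed below Col5a1, at 151 ± 59.1 CPM per kb.

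**Figure D1:**
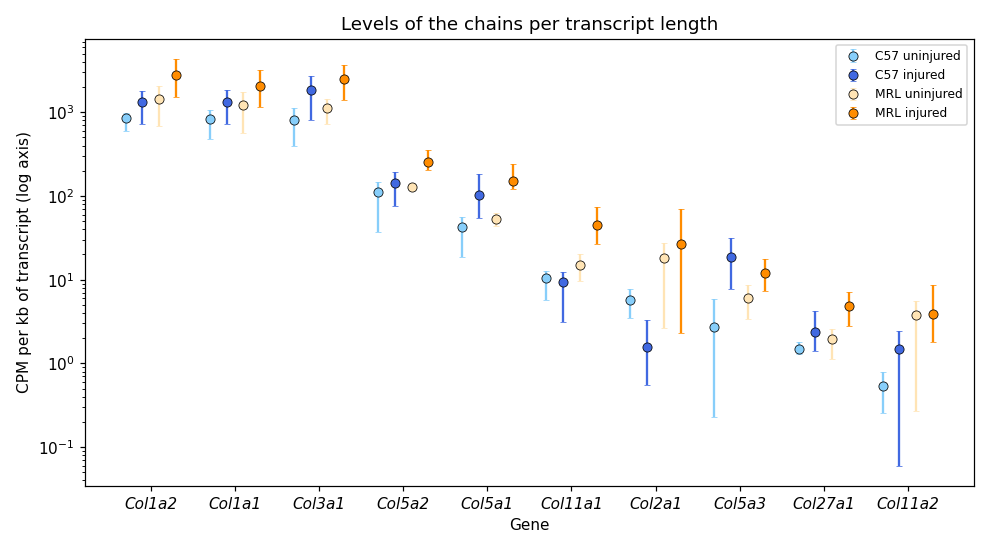
Level of each chain in CPM per kb of its longest coding transcript, on a log axis, with points for the mean of 4 libraries of a group and bars from the lowest to the highest library. Type I and III chains lie highest in all 4 groups, and Col11a1 in injured MRL tendon, at a mean of 44.9 CPM per kb, lies above its other groups.

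In C57 tendon none of the 10 chains passed the test for a change at 7 dpi. The test was edgeR's quasi-likelihood test with Benjamini-Hochberg adjustment over all 14424 genes tested, and a gene was called differentially expressed (DEG) if it passed 0.05 after adjustment and moved by more than 1 on the log2 scale. By these criteria 155 genes (1.07%) were DEG. At an unadjusted p-value under 0.05 there were 4 members, against 2204 genes (15.3%), and DESeq2 called 2 (Col2a1 and Col5a3), against 911 genes (5.5% of those with an adjusted p). Log2 fold changes were above 0 in 8 of 10 chains, with a median of 0.62 against -0.05 over all genes tested. Macrophage markers summed to between 4719 and 8261 CPM in injured and between 766 and 1645 CPM in uninjured C57 tendon, and 5 of 8 rose (Mrc1, C1qa, Lyz2, Cd68 and Adgre1). Fibroblast markers summed to between 1033 and 1531 CPM and between 439 and 815 CPM, and 1 of 6 rose (Pi16). Endothelial markers summed to between 96.8 and 144 CPM and between 17.1 and 73.2 CPM, without overlap, with all 6 log2 fold changes above 0, a median of 1.73, 4 at an unadjusted p under 0.05 and none called. Their part in the collagen values was not tested.

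Col5a3, a minor type V chain, had 51.3, 194, 169 and 47.5 CPM in the 4 injured C57 libraries and 36.0, 19.1, 10.5 and 1.38 CPM in the uninjured ones. Every injured library lay above every uninjured one, as in 7.51% of genes tested. The log2 fold change was 2.74 ± 0.87 (SE) with an adjusted p of 0.197 by edgeR and 0.00946 by DESeq2, and with 1 library left out it ran from 2.35, without uninjured replicate 4, to 3.43, without uninjured replicate 1, the highest of its group, and stayed uncalled.

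Col2a1, the cartilage fibril chain, had 3.04, 17.0, 2.79 and 9.52 CPM in injured C57 tendon and 18.0, 39.8, 19.6 and 39.9 CPM in uninjured C57 tendon. Every injured library lay below every uninjured one, as in 4.19% of genes tested, and the log2 fold change was -1.91 ± 0.61 with an adjusted p of 0.195 by edgeR and 0.046 by DESeq2. Without BI-183, its highest injured library, the value was -2.53. Summed cartilage markers lay between 3738 and 8656 CPM in injured C57 tendon and between 5662 and 23161 CPM in uninjured C57 tendon, with from 1 to 5 of the 9 listed genes in the table at 0 in a library, Matn1 in all 8. Chad made up most of the sum. Their part in the result was not tested.

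Col3a1 had 4528, 14343, 15263 and 7178 CPM in injured C57 tendon and 4194, 5416, 6292 and 2171 CPM in uninjured C57 tendon, so the groups overlapped. Its log2 fold change was 1.14 ± 0.46 with an adjusted p of 0.287. Col5a1 had a log2 fold change of 1.24 ± 0.44 with an adjusted p of 0.236, and 2 of its injured libraries, BI-183 and BI-184, were the highest at 1549 and 784 CPM. Both type I chains had values near 0.6, at 0.62 ± 0.36 for Col1a1 and 0.59 ± 0.33 for Col1a2. Col11a1 was the only chain besides Col2a1 with a log2 fold change below 0, at -0.24 ± 0.41, and it was 0.08 without BI-181, the injured library with the high muscle share. Col11a2 had a value of 1.45 ± 0.87, Col27a1 of 0.63 ± 0.37 and Col5a2 of 0.34 ± 0.44, and the groups overlapped for all 3.

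In MRL tendon 4 of the 10 chains rose at 7 dpi: Col3a1, Col5a1, Col11a1 and Col27a1. None fell, all 10 log2 fold changes were above 0, and their median was 0.98 against -0.03 over all genes. The value of Col2a1 turned below 0 without BI-275, and that of Col11a2 without BI-272 or without uninjured MRL replicate 4. Over all 14274 genes tested, 750 (5.25%) were DEG with higher counts in injured MRL tendon. The count was 2 members, Col5a1 and Col11a1, when uninjured MRL replicate 2, uninjured MRL replicate 4 or BI-272 was left out. Macrophage markers moved with injury here too, at a summed 3508 to 6381 CPM in injured and 954 to 1562 CPM in uninjured MRL tendon, and 3 of 8 rose (Lyz2, Cd68 and Adgre1). Of the tendon markers 2 of 8 rose (Col12a1 and Thbs4), with sums of 13407 to 19926 CPM in injured and 10874 to 14076 CPM in uninjured tendon, and of the fibroblast markers 1 of 6 fell (Clec3b). Bone markers, from cells that also make type I collagen, summed to between 4863 and 34574 CPM and between 2034 and 8931 CPM. Of the 4 tested, only 2 had log2 fold changes above 0, with a median of 0.16. All 4 had an unadjusted p under 0.05 by edgeR and none was called. The part of these cells in the collagen values was not tested.

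Col5a1, the chain common to the type V trimers, had 1033, 2017, 1010 and 1028 CPM in injured MRL tendon and 526, 476, 390 and 369 CPM in uninjured MRL tendon. The groups did not overlap, which held for 13.5% of genes tested in this direction, and BI-272 stood highest. The log2 fold change was 1.53 ± 0.25, or 2.90-fold, with an adjusted p of 0.00524 by edgeR, and it passed the test with any 1 library left out, with values from 1.23 to 1.63.

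Col11a1, a type XI chain known from cartilage and from fibrils that are being laid down, had 204, 561, 214 and 398 CPM in injured MRL tendon and 138, 154, 96.3 and 74.1 CPM in uninjured MRL tendon. All injured libraries lay above the uninjured ones. The log2 fold change was 1.58 ± 0.35, or 2.99-fold, with an adjusted p of 0.0189 by edgeR. It missed the adjusted threshold, at 0.060, when uninjured MRL replicate 3 was left out, where the members called fell to 1, Col5a1. Of 6 cartilage markers tested 2 had log2 fold changes above 0 and 4 below, with a median of -1.01, and 5 had an unadjusted p under 0.05. Their summed level lay between 2980 and 7075 CPM in injured and between 10961 and 23009 CPM in uninjured MRL tendon, but most of that sum was Chad, which tendon also expresses. Acan, the cartilage proteoglycan, lay between 48.1 and 358 CPM in injured and between 38.2 and 64.8 CPM in uninjured MRL tendon, and Hapln1, which links it to hyaluronan, between 44.3 and 281 CPM and between 46.1 and 82.0 CPM. Sox9, the cartilage transcription factor, lay between 64.8 and 211 CPM in injured and between 210 and 350 CPM in uninjured MRL tendon. Acan rose and Chad fell, Matn1 was at 0 in all 4 injured MRL libraries and Matn3 in 3. The part of such cells in the result was not tested.

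Col27a1 had 21.2, 43.7, 28.6 and 54.8 CPM in injured MRL tendon and 16.7, 8.59, 19.6 and 15.5 CPM in uninjured MRL tendon. The groups did not overlap, although 21.2 and 19.6 CPM lay close, and the log2 fold change was 1.30 ± 0.34 with an adjusted p of 0.036 by edgeR. Col3a1 had 15488, 20572, 12007 and 7772 CPM in injured MRL tendon and 7993, 6436, 6707 and 4072 CPM in uninjured MRL tendon, so that BI-275 lay below 1 uninjured library. Its log2 fold change was 1.15 ± 0.31, or 2.22-fold, with an adjusted p of 0.0405 by edgeR. With 1 library left out in turn, the calls of Col3a1 and of Col27a1 were each lost in 6 of 8 cases. Without uninjured MRL replicate 4 the log2 fold change of Col3a1 was 1.01 with an adjusted p of 0.0895, and that of Col27a1 was 1.33 with an adjusted p of 0.0705. With all 16 libraries in one fit Col3a1 was not called either, at 1.15 with an adjusted p of 0.104.

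Col5a2, the partner of Col5a1 in type V collagen, had 1642, 2321, 1360 and 1379 CPM in injured and 948, 844, 771 and 868 CPM in uninjured MRL tendon, without overlap. Its log2 fold change of 0.97 ± 0.20 had an adjusted p of 0.0129 by edgeR and did not reach the required size of 1. It was called in 3 of 8 cases with 1 library left out, at 1.06 without BI-274, 1.05 without BI-275 and 1.02 without uninjured replicate 1. Col1a1 and Col1a2 had log2 fold changes of 0.74 ± 0.39 and 0.93 ± 0.38, with adjusted p of 0.247 and 0.142 by edgeR. Col5a3 had a value of 0.99 ± 0.35 and an adjusted p of 0.0942. Col2a1 spread from 11.9 CPM (BI-270) to 355 CPM (BI-275) in injured MRL tendon and from 13.5 CPM (replicate 4) to 142 CPM in uninjured MRL tendon, with a log2 fold change of 0.57 ± 0.94 that was -0.53 without BI-275. Col11a2 had a log2 fold change of 0.03 ± 0.74, which was -0.73 without BI-272 and -0.34 without uninjured MRL replicate 4.

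**Figure D2:**
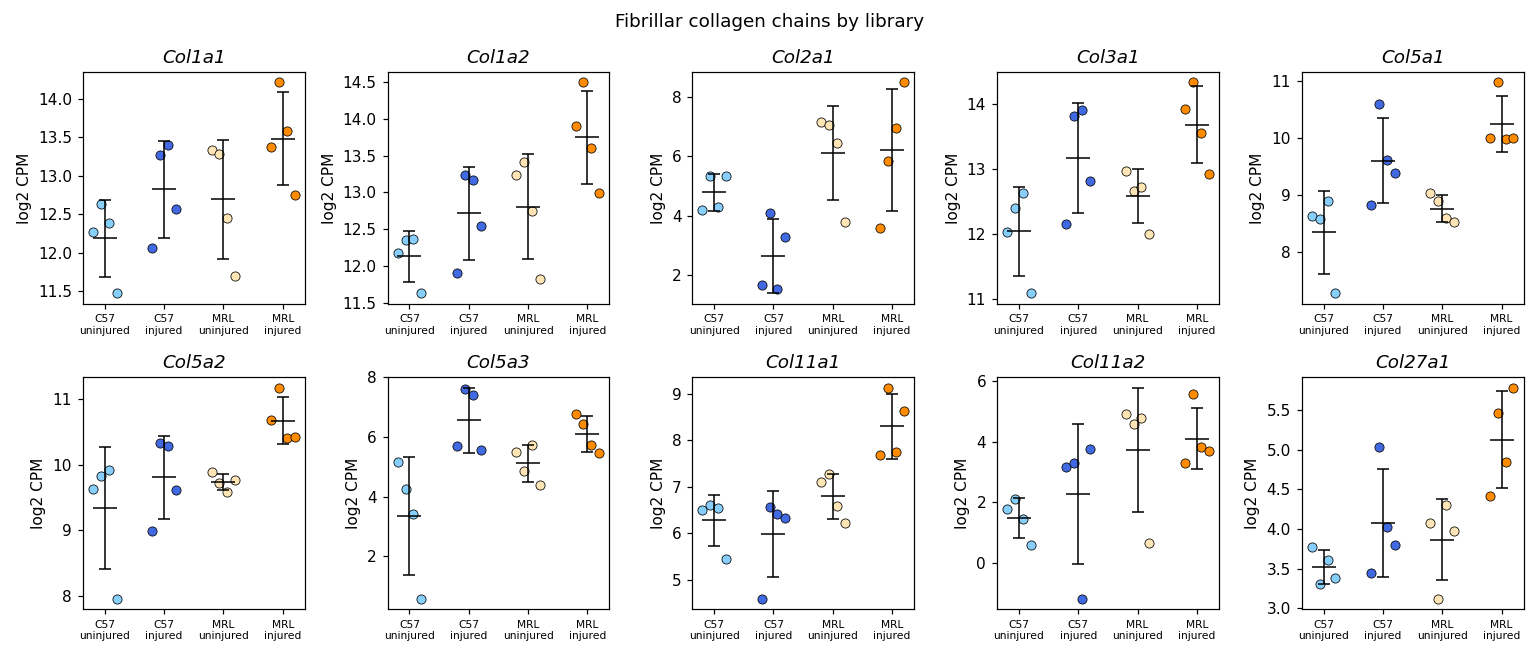
Log2 CPM of each chain in the 16 libraries, with points for libraries, a dash for the mean and bars for the SD of 4 libraries. The injured MRL libraries lie above the uninjured MRL libraries for Col5a1, Col5a2, Col11a1 and Col27a1, and uninjured C57 replicate 4 is the lowest uninjured C57 library for 8 of the chains.

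In uninjured tendon no chain passed the test between strains, nor did any of 14055 genes (0%). By unadjusted p under 0.05 there were 2 members and 1106 genes (7.87%), and DESeq2 called 1 member, Col11a2, and 104 genes (0.647%). All 10 log2 fold changes (MRL against C57) were above 0, with a median of 0.53 against -0.03 over all genes. Without uninjured C57 replicate 4 that of Col5a2 turned to -0.064, and those of Col5a1 and Col3a1 were 0.058 and 0.24. No member's groups were free of overlap, against 3.07% of genes in the direction of MRL. Col11a2, the other type XI chain, had 29.8, 23.6, 27.4 and 1.45 CPM in uninjured MRL and 3.29, 4.22, 2.63 and 1.38 CPM in uninjured C57 tendon. MRL replicate 4 thus lay within the C57 values. Its log2 fold change was 2.82 ± 0.77 with an adjusted p of 0.621 by edgeR. Col2a1 had 142, 130, 86.0 and 13.5 CPM in uninjured MRL tendon against 18.0 to 39.9 CPM in C57, and a log2 fold change of 1.64 ± 0.61 with the same adjusted p of 0.621. Without both libraries labelled replicate 4, edgeR called these 2 chains, at 2.98 (Col11a2) and 2.20 (Col2a1), and 497 genes in all. Of 6 cartilage markers tested none was called, but 5 had log2 fold changes above 0 and 4 an unadjusted p under 0.05, with a median of 1.11. Acan lay between 38.2 and 64.8 CPM in uninjured MRL and between 7.66 and 15.9 CPM in uninjured C57 tendon, and Hapln1 between 46.1 and 82.0 CPM and between 22.5 and 37.7 CPM, both without overlap. Their part in these values was not tested.

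The other chains lay closer between the uninjured strains. Col5a3 had a log2 fold change of 1.14 ± 0.73, which was 0.75 without uninjured C57 replicate 4 and 1.84 without uninjured C57 replicate 1. The type I chains had 0.57 ± 0.38 (Col1a1) and 0.74 ± 0.34 (Col1a2). Col11a1 had 0.50 ± 0.30, Col3a1 0.47 ± 0.34, Col27a1 0.38 ± 0.30, Col5a1 0.30 ± 0.31 and Col5a2 0.22 ± 0.36, and the groups overlapped for each.

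In injured tendon Col11a1 was higher in MRL than in C57, and it was the only one of the 10 chains to pass the test. The 4 injured MRL libraries, at 204 to 561 CPM, lay above the 4 injured C57 libraries, at 24.1, 94.5, 85.2 and 80.5 CPM. The log2 fold change was 2.25 ± 0.46, or 4.77-fold, with an adjusted p of 0.0256 by edgeR, where 227 of 14626 genes (1.55%) were higher in MRL. With no filter on low counts the adjusted p was 0.0503. It lost the call when BI-183, BI-184, BI-185, BI-272 or BI-275 was left out, with adjusted p up to 0.075 and log2 fold changes from 1.97 to 2.51 over all 8 cases. DESeq2 called Col2a1 as well, where it called 1473 genes (8.15%). Acan and Hapln1 also lay higher in all injured MRL libraries, at 48.1 CPM and 44.3 CPM or more, than in injured C57 libraries, at 21.6 CPM and 14.5 CPM or less, and these were the 2 of 6 cartilage markers tested that were DEG in that direction. Both were already free of overlap between the uninjured strains, and 2 of the 6 had log2 fold changes below 0. Chad, most of the sum, lay between 2111 and 6737 CPM in injured MRL and between 3549 and 8524 CPM in injured C57 tendon.

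Markers of other cells differed in level as well. Tendon markers summed to between 13407 and 19926 CPM in injured MRL and between 7177 and 10511 CPM in injured C57 tendon, without overlap. All 8 had log2 fold changes above 0, and 2 were DEG (Scx, a tendon transcription factor, and Col12a1). Fibroblast markers summed to between 563 and 936 CPM against between 1033 and 1531 CPM, with all 6 log2 fold changes below 0 and none called. Macrophage markers were lower in injured MRL tendon for 4 of 8 tested genes (C1qa, C1qb, C1qc and Csf1r), and endothelial markers for 1 of 6 (Pecam1), with summed endothelial levels of 0.925 to 24.4 CPM against 96.8 to 144 CPM. Bone markers summed to 4863, 34574, 8950 and 21154 CPM in the 4 injured MRL libraries and to between 2415 and 9075 CPM in injured C57 tendon. BI-272 and BI-275, the highest of these, were also the highest for Col11a1. In each of these libraries 5 of the 8 bone markers were under 1 CPM, so the sums rested on few genes. Of 6 bone markers tested 3 had log2 fold changes above 0, 5 had an unadjusted p under 0.05 and none was called. The part of these cells in the Col11a1 and Col2a1 results was not tested.

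Groups free of overlap in the direction of MRL were found for Col11a1 and Col5a2, against 8.05% of genes tested. Col5a2 had a log2 fold change of 0.78 ± 0.31 with an adjusted p of 0.189. Col2a1 had the largest value, 4.05 ± 1.07, with an adjusted p of 0.0771, and its injured MRL libraries ran from 11.9 to 355 CPM. The value was 3.03 without BI-275 and 4.71 without BI-183, and it was called, with an adjusted p of 0.0396, without BI-270. Col1a2 had a value of 1.02 ± 0.38 with an adjusted p of 0.163, and Col5a3 was the only chain with a value below 0, at -0.68 ± 0.48. Col11a2 had 1.34 ± 0.83, which was 0.63 without BI-272. Col27a1 had 1.00 ± 0.39, Col1a1 0.64 ± 0.38, Col5a1 0.53 ± 0.38 and Col3a1 0.42 ± 0.42.

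The difference of the injury response between strains was tested as an interaction over all 16 libraries, and no chain and none of 15947 genes passed it by edgeR (0%). At an unadjusted p under 0.05 there were 1 member and 1939 genes (12.2%), and DESeq2 called 210 genes (1.34%) but no member. That member was Col11a1, whose change in MRL exceeded that in C57 by 1.77 ± 0.59 on the log2 scale with an adjusted p of 0.339. The calls in MRL and their absence in C57 are therefore not shown to differ between strains. For Col3a1 the difference was -0.05 ± 0.58 and for Col5a1 0.24 ± 0.53. It was 2.42 ± 1.26 for Col2a1, -1.81 ± 0.98 for Col5a3 and -1.46 ± 1.21 for Col11a2. Single libraries moved these, Col2a1 to 1.32 without BI-275 and 3.08 without BI-183, Col5a3 to -2.49 without uninjured C57 replicate 1 and Col11a2 to -2.23 without BI-272. Col27a1 had 0.62 ± 0.52, Col5a2 0.58 ± 0.51, Col1a2 0.28 ± 0.53 and Col1a1 0.07 ± 0.57.

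**Figure D3:**
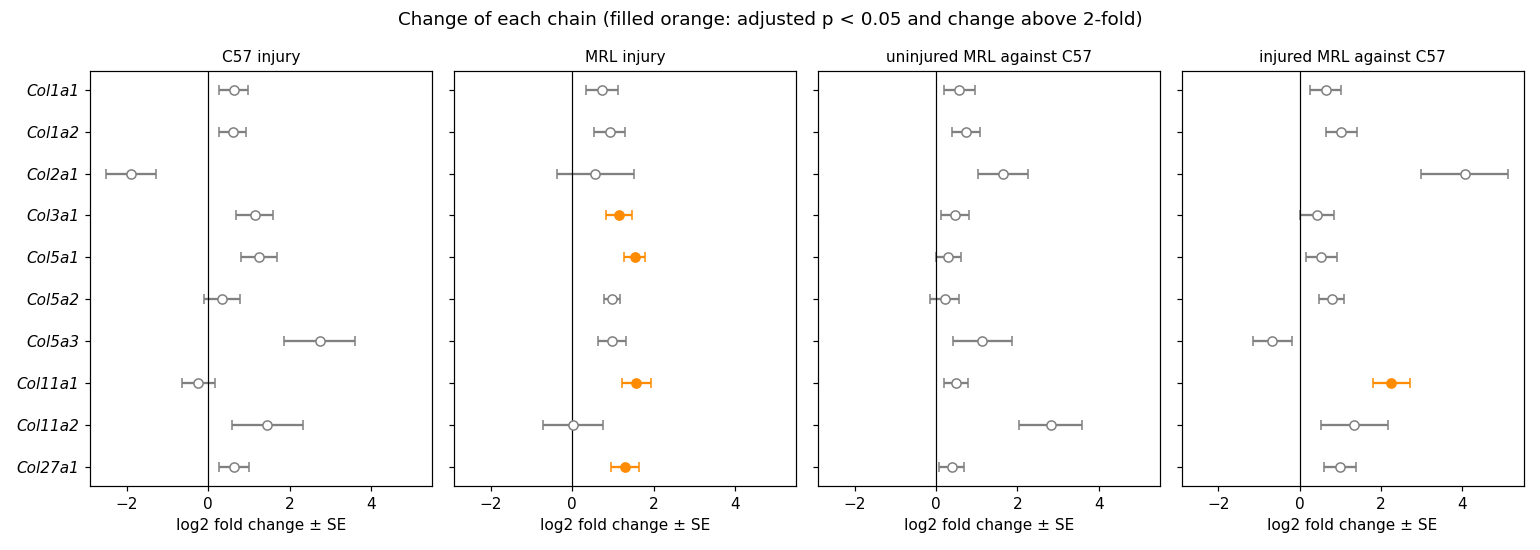
Log2 fold change of each chain with its SE in 4 comparisons, with filled orange points for chains that passed the test. Col3a1, Col5a1, Col11a1 and Col27a1 are filled for MRL injury, Col11a1 alone for injured MRL against C57, and none for C57 injury or the uninjured strains.

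Ratios of chains were computed within a library, where library size has no part, and compared by a two-sided exact permutation test of 4 against 4 libraries, for which the smallest p is 0.0286. Over 6 ratios and 4 comparisons there were 24 tests, and none had an adjusted p under 0.171. The Col3a1 to Col1a1 ratio of counts, a measure of type III against type I collagen transcripts, was 1.06, 1.45, 1.41 and 1.18 in injured C57 and 0.847, 0.852, 1.18 and 0.763 in uninjured C57 tendon. Uninjured replicate 3 lay among the injured libraries. The log2 ratio differed by 0.50 (exact permutation p = 0.0571, adjusted p = 0.171). Without that library it differed by 0.63 (exact permutation p = 0.0286, unadjusted). Leaving out the library that overlapped fixes this p at the smallest value possible, so it adds no evidence.

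In MRL tendon the same ratio was 1.46, 1.08, 0.974 and 1.13 after injury and 0.773, 0.644, 1.19 and 1.22 without it, and the groups overlapped. The log2 difference was 0.31 (exact permutation p = 0.314). Between strains it differed by 0.04 in uninjured tendon and by -0.14 in injured tendon (exact permutation p = 0.857 and 0.429). The Col1a2 to Col1a1 ratio ran from 0.853 to 0.985 in injured C57 and from 1.01 to 1.44 in injured MRL tendon, without overlap, a log2 difference of 0.37 (exact permutation p = 0.0286, adjusted p = 0.171).

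Col11a1 to Col5a1, a ratio of chains that can replace one another in type V and type XI trimers, was 0.053, 0.061, 0.109 and 0.120 in injured C57 tendon and 0.225, 0.253, 0.196 and 0.280 in uninjured C57 tendon. Injured libraries were lower without overlap, by 1.55 on the log2 scale, or 2.93-fold (exact permutation p = 0.0286, adjusted p = 0.171). In MRL tendon it was 0.198, 0.278, 0.212 and 0.387 after injury and 0.262, 0.324, 0.247 and 0.201 without it, a log2 difference of 0.03 (exact permutation p = 0.914). Injured MRL tendon thus lay above injured C57 tendon in every library, by 3.22-fold (exact permutation p = 0.0286, adjusted p = 0.171).

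Within type V collagen, Col5a2 to Col5a1 ran from 1.15 to 1.59 in injured and from 1.77 to 2.35 in uninjured MRL tendon, without overlap (log2 difference -0.54, exact permutation p = 0.0286, adjusted p = 0.171). In C57 tendon it ran from 0.835 to 1.60 and from 1.59 to 2.35, with a log2 difference of -0.78 (exact permutation p = 0.0571). Col5a3 to Col5a1 rested on few counts in uninjured C57 tendon, where replicate 4 had 21 counts of Col5a3, and its log2 difference in C57 injury was 1.98 (exact permutation p = 0.0571), or 1.39 without that library and 2.49 without uninjured replicate 1. It was -0.49 in MRL injury (exact permutation p = 0.257), 1.37 between the uninjured strains (exact permutation p = 0.143) and -1.10 in injured MRL against C57 (exact permutation p = 0.0571).

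The Col5a1 to Col1a1 ratio, type V against type I, differed by 0.62 on the log2 scale in C57 injury (exact permutation p = 0.0857) and by 0.69 in MRL injury (exact permutation p = 0.114), with overlap in both. Between strains it differed by -0.09 in uninjured and -0.02 in injured tendon (exact permutation p = 0.771 and 0.886).

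**Figure D4:**
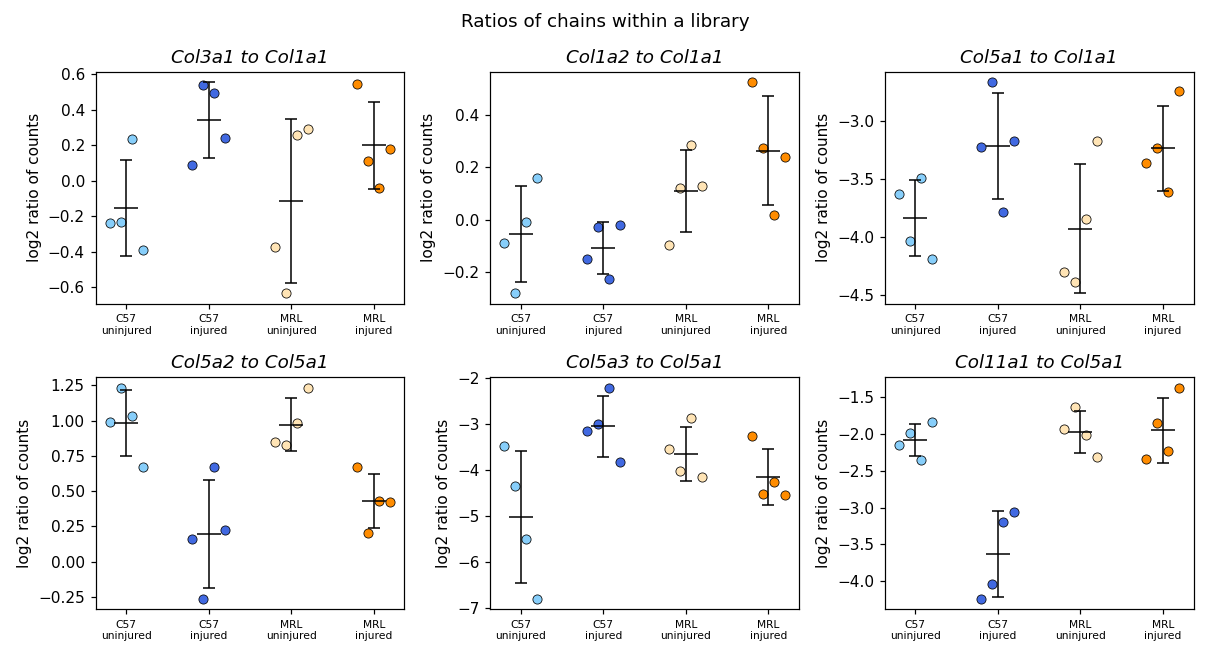
Log2 ratio of counts of 2 chains in each of the 16 libraries, with points for libraries, a dash for the mean and bars for the SD of 4 libraries. The Col11a1 to Col5a1 panel shows injured C57 libraries below all others, and the Col3a1 to Col1a1 panel shows groups that overlap.

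Genes that act on collagen were counted in lists by role, to be read against 5.25% of all genes called higher and 2.15% called lower in MRL injury and 1.07% called in either direction in C57 injury. No gene of these lists passed the interaction test, so the counts are not shown to differ between strains. Of 18 genes for folding and hydroxylation, 3 rose in injured MRL tendon and none passed in C57: P4ha3 (2.92 ± 0.44) and P3h1 (1.09 ± 0.16), which hydroxylate proline, and Serpinh1 (1.29 ± 0.20), the collagen chaperone, with an adjusted p of 0.0041 by edgeR. Serpinh1 had a log2 fold change of 1.24 ± 0.42 in C57 with an adjusted p of 0.216. P4hb, a subunit of the prolyl hydroxylase, and Fkbp10, a collagen chaperone, had log2 fold changes of 0.80 and 0.79 in MRL, below the required size. The list's median was 0.56 in MRL and 0.20 in C57. Of 9 tested genes of procollagen export, 1 rose in MRL (Sec13, 1.04 ± 0.21) and none in C57, while Sec24d and Sec23a had 0.47 and 0.41 in MRL.

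Among 12 tested genes of propeptide removal and crosslinking, 3 lysyl oxidases rose in MRL, Lox (1.37 ± 0.22), Loxl1 (1.56 ± 0.36) and Loxl3 (1.02 ± 0.29), and Loxl1 alone rose in C57 (3.10 ± 0.52). Pcolce and Pcolce2, enhancers of propeptide removal, had log2 fold changes of 0.23 and -0.74 in MRL. Among 18 genes of the fibril surface and assembly, 7 rose and 1 fell in MRL. Tnc had 6.67 ± 0.66, Col6a3 1.84 ± 0.26 and Fn1 1.68 ± 0.41, while Tnxb fell by 2.51 on the log2 scale. In C57 the list had 1 gene that rose, Postn (6.91 ± 1.25). The most abundant of the list, Dcn, Sparc and Comp, had -0.10, 0.54 and -0.08 in MRL and did not pass.

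For breakdown and uptake, 2 of 8 tested genes rose in MRL, Timp1 (4.97 ± 0.76) and Ctsk (1.36 ± 0.16), and 1 in C57, Mmp2 (1.76 ± 0.34), whose value in MRL was -0.39 ± 0.38. Timp2 and Timp3, which like Timp1 inhibit matrix metalloproteinases, had -0.46 and -0.13 in MRL. Of 8 tested collagen receptors 1 fell in MRL, the integrin gene Itga10 (-1.18 ± 0.31), and Itgb1, Ddr2 and Itga11 had 0.55, -0.41 and 0.03. Of 10 tested genes of the TGF-beta axis, which drives collagen transcription, Tgfb1 rose (1.07 ± 0.25) and Tgfb3 fell (-1.12 ± 0.30) in MRL, with none called in C57, and Tgfbr2 and Smad4 had -0.27 and -0.37 in MRL.

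Genes whose log2 CPM followed a chain most closely over the 16 libraries are given as a description, since the libraries share groups and depth. For Col1a1 they were Matn2 (Pearson r = 0.90), Gm26584, Col16a1, Rcn3 and Fkbp10 (0.87). For Col3a1 they were Serpinh1 (0.92), Txndc5, Arpc1b, Calu and Ergic1 (0.90). For Col11a1 they were Nucb2 (0.96), Hsp90b1, Gpx8, Vkorc1 and Praf2 (0.94). Among the chains themselves Col1a1 and Col1a2 had r = 0.96, Col3a1 and Col5a1 0.92, and Col1a1 and Col2a1 0.24.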

How the data were processed

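Per the labels and the methods, the authors trimmed single-end reads with Trimmomatic 0.36 and mapped them with STAR 2.5.2b to GRCm38.p5, and the submitters' processing notes name Subread 1.5.0p3 (featureCounts) and DESeq2 1.14.1. The authors deposited whole-number counts per gene symbol, without normalization. Annotation and strand setting are not given in the sources used here. The labels describe poly(A) libraries, the methods a low-input pre-amplification. No column of per-sample values was left unused.

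Counts were tested with edgeR 4.0.16 in R 4.3.3 (robust quasi-likelihood test, TMM, filterByExpr), in separate fits of the 8 libraries of each comparison, with the interaction fitted over 16 libraries. All 10 members passed the filter in every comparison. P-values were adjusted over all genes tested. The SE is the absolute log2 fold change divided by the square root of F. Log2 CPM used a prior count of 2 and ratios a pseudocount of 0.5. Levels per kb used the longest coding transcript of GENCODE M21. P-values measure the spread between these libraries. The scripts were tested on simulated data. Alternatives were DESeq2 1.42.0, other normalizations and filters, libraries left out and a replicate block.

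The members and gene lists were chosen with earlier results of these data known. All 10 members are named in every comparison, in each list the 3 most abundant genes, and for 3 chains the 5 genes of highest correlation. Other list genes that are named, called ones and cell type markers, were chosen after their values were seen. Same-numbered uninjured libraries are different animals. Of the members' 100-base stretches, at most 0.421% (Col3a1) also occur in another gene's transcripts.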

Additional observations from a re-analysis of the deposited data

Results flagged for a closer look

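Of 64 groups of 4 libraries examined (10 chains and 6 ratios in 4 groups), 6 held a library whose gap to its nearest neighbour, as a share of the group's range, exceeded Dixon's critical value, and chance flags about 1 in 20 groups. For Col11a1 this was BI-181 in injured C57 tendon, the lowest at a log2 CPM of 4.60, and uninjured C57 replicate 4, the lowest at 5.45. For Col5a2 it was uninjured C57 replicate 4, at 7.95. For Col11a2 it was BI-184 in injured C57 tendon, at -1.17 (5 counts), and uninjured MRL replicate 4, at 0.65 (18 counts). For Col5a1 it was BI-272 in injured MRL tendon, the highest at 10.98. Uninjured C57 replicate 4 also carried the high epidermal markers, and BI-181 the high muscle markers, and their part in these values was not tested.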

How the results depend on the processing

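Member values and counts were recomputed under each alternative. Col11a2, with 5 counts in BI-184, had no value under the filter of at least 10 counts in every library where that library was in the fit, and the replicate block was run for the uninjured strains alone. Of 387 member fold changes under alternatives other than leaving 1 library out, 373 kept their direction and side of the threshold, as did 439 of 480 with 1 library left out. The cause of the changes below was not tested.

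The number of members called in C57 injury was 2 with DESeq2 and 0 in all other cases, although the genes called over the whole table ran from 10 to 911. In MRL injury it was 2 without uninjured replicate 4, 3 with all 16 libraries in one fit, where Col3a1 was lost, and from 1 to 5 with 1 library left out. In uninjured MRL against C57 it was 1 with DESeq2 and 2 without both replicate 4 libraries. In injured MRL against C57 it was 2 with DESeq2, 0 without a filter and from 0 to 2 with 1 library left out.

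Without both replicate 4 libraries, log2 values turned direction for Col11a2 in MRL injury (-0.34), Col5a2 in uninjured MRL against C57 (-0.073), Col3a1 in the interaction (0.025), Col3a1 to Col1a1 in uninjured MRL against C57 (-0.17), Col1a2 to Col1a1 in C57 injury (0.019) and Col11a1 to Col5a1 in MRL injury (-0.089). Total counts without TMM turned Col1a1 in the interaction (-0.036), and the ratio of group means turned Col3a1 to Col1a1 in uninjured MRL against C57 (-0.11).

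With 1 library left out, values that turned direction ranged from -0.45 to 0.082 for Col11a1 in C57 injury, from -0.53 to 0.93 for Col2a1 and from -0.73 to 0.26 for Col11a2 in MRL injury, and from -0.064 to 0.39 for Col5a2 in uninjured MRL against C57. In the interaction they ranged from -0.23 to 0.28 for Col1a1, from -0.020 to 0.49 for Col1a2, from -0.29 to 0.21 for Col3a1 and from -0.069 to 0.69 for Col5a1. Col3a1 to Col1a1 ranged from 0.42 to 0.63 in C57 injury and from -0.095 to 0.21 in uninjured MRL against C57. Col1a2 to Col1a1 in C57 injury ranged from -0.13 to 0.019. Col5a1 to Col1a1 ranged from -0.34 to 0.064 in uninjured and from -0.21 to 0.16 in injured MRL against C57. Col5a2 to Col5a1 in uninjured MRL against C57 ranged from -0.11 to 0.075, and Col11a1 to Col5a1 from -0.17 to 0.16 in MRL injury and from -0.0081 to 0.22 in uninjured MRL against C57. With 3 against 4 libraries the smallest exact permutation p for a ratio is 0.0286. By unadjusted p under 0.05, 6 ratio results passed with 1 library left out that had not passed with all, and 6 no longer passed. Among those that passed was Col3a1 to Col1a1 in C57 injury without uninjured replicate 3 (0.63), the library that overlapped the injured ones.

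With the replicate number as a block (replicate block), 0 members were called in uninjured MRL against C57, and Col3a1 to Col1a1 differed by 0.04. Same-numbered libraries did not deviate together (correlations from -0.26 to 0.02), so no pairing by number was seen. So few correlations cannot exclude a batch that some of them share. Counting depth limits Col5a3, Col11a2 and Col2a1, whose lowest counts were 21, 5 and 43.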
